A study of Mus musculus with 14 samples.

Results

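The immunoglobulin variable (V) gene segments were examined across 14 RNA-seq libraries of mouse bone marrow cells. Genes were taken whose symbol starts with Ighv, Igkv or Iglv and that reached at least 10 counts in at least 4 of the 14 libraries. This left 171 members of the 348 V segments listed, among 52550 genes in all: 85 of 185 heavy chain segments (Ighv), 84 of 160 kappa light chain segments (Igkv) and 2 of 3 lambda light chain segments (Iglv). All 171 reached the minimum through the libraries of untransformed cells alone, and 0 had 10 counts in any library of leukemia cells. At the edge of the rule, the lowest of the 4 best libraries held 10 counts for Igkv3-9, which was kept, and 9 counts for Ighv1-41 and Igkv1-133, which were left out.

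The study profiled hematopoietic stem and progenitor cells (HSPCs) that carry or lack Mir139, and cells transformed by the leukemia fusion gene MLL-AF9. The 4 WT HSPC and 4 Mir139KO HSPC libraries came from femur and tibia marrow of C57BL/6 mice of 8 to 20 weeks, enriched for progenitors with an antibody kit that removes mature cells. The labels describe cells either lysed at once or expanded in culture without saying which for each sample, and the HSPC libraries were taken as the former. The Mir139KO line was made by CRISPR-Cas9 deletion. The 6 MLL-AF9 libraries were from WT HSPCs kept in cytokines overnight, transduced with a retrovirus carrying pMSCV-MLL-AF9-neo (replicates 1 to 3) or pMSCV-MLL-AF9-puro (replicates 4 to 6), drug-selected and re-plated in MethoCult. The cultured group therefore differed from the HSPCs in transformation, selection and culture together, and these cannot be told apart. The labels do not say whether replicates were separate mice, so p-values measure the spread between these samples. Libraries held 35016668 to 45877994 counts. In the HSPCs, 17.0 to 35.4% of counts fell on a single gene, Gm26917, with 4 libraries (WT 1 and 2, Mir139KO 2 and 3) under 25% (low-share libraries) and 4 (WT 3 and 4, Mir139KO 1 and 4) above it (high-share libraries). In MLL-AF9 cells that share was 7.55 to 10.4%.

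An antibody is built from paired heavy and light chains, and the part of each chain that meets the antigen is encoded by a V segment joined, in a developing B cell, to small D and J segments (heavy chain) or to a J segment (light chains). Each mature B cell normally uses a single heavy and a single light chain V segment, and its clonal offspring keep them. Plasma cells, which settle in bone marrow, transcribe their rearranged chains at very high levels, whereas myeloid cells do not make antibody.

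Ighv11-2 and Igkv14-126 are shown first because they moved most closely together in these libraries. They are known as a recurrent heavy and light chain pair of B-1 cells, the innate-like B cells, that binds phosphatidylcholine. The GENCODE M21 transcripts on build GRCm38 give the V exons below, 5′ to 3′, cut to the last 300 bases for Ighv11-2 and whole for Igkv14-126. The capitals mark the cysteine codon that closes the framework, after which rearrangement adds junctional bases.
Ighv11-2 (chr12:114048241-114048540, minus strand): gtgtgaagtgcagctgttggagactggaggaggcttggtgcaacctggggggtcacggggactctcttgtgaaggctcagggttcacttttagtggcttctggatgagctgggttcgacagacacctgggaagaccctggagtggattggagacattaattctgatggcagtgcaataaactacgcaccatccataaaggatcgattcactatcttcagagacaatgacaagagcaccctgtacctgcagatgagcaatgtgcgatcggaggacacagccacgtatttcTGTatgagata
Igkv14-126 (chr6:67896345-67896642, plus strand): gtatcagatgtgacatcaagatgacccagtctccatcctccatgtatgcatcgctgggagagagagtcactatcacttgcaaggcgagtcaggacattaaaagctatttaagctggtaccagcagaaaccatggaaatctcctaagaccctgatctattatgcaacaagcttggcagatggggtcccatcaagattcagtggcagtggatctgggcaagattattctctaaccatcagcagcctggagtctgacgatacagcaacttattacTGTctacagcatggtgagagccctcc

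The last 75 bases of the other most abundant heavy chain members show the same end with different flanking bases. The search was for a tyrosine codon, a middle codon and a cysteine codon (TGT or TGC) in a row. The middle codon was limited to A or T, A or T, and C or T at its successive bases, and reading frame was not checked. This pattern was found in the last 80 bases of 168 of the 171 members and of 2.23% of all annotated transcripts.
Ighv9-3 (chr12:114140692-114140766, minus strand): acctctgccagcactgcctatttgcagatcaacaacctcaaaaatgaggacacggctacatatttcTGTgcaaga
Ighv3-6 (chr12:114288157-114288231, minus strand): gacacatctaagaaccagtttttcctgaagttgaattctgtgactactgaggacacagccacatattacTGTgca
Ighv7-1 (chr12:113896408-113896482, minus strand): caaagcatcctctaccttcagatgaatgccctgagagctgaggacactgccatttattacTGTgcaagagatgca
Ighv1-26 (chr12:114788372-114788446, minus strand): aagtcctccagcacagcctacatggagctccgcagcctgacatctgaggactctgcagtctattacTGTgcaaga
Ighv6-3 (chr12:114391712-114391786, minus strand): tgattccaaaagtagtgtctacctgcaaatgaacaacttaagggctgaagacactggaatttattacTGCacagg

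The kappa members most abundant after Igkv14-126 ended with more bases behind the cysteine codon than these heavy chain members. Those bases are the germline start of the CDR3 loop, which contacts antigen.
Igkv10-96 (chr6:68631963-68632037, minus strand): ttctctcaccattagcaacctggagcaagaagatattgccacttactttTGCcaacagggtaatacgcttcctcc
Igkv15-103 (chr6:68437851-68437925, plus strand): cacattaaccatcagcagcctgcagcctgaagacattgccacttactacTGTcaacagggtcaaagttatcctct
Igkv1-110 (chr6:68271193-68271267, plus strand): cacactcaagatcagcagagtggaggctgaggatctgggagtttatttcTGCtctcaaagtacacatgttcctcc
Igkv5-39 (chr6:69900424-69900498, minus strand): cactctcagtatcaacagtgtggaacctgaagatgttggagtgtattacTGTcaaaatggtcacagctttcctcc
Igkv1-117 (chr6:68121753-68121827, plus strand): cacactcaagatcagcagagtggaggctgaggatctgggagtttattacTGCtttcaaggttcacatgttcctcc

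The lambda members are shown because they are the whole of the lambda set measured here.
Iglv2 (chr16:19260401-19260475, minus strand): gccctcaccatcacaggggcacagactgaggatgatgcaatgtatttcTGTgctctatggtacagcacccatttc
Iglv3 (chr16:19241207-19241281, minus strand): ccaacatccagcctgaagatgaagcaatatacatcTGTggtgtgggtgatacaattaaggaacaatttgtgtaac

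Segments of a family resemble each other, and the counting of reads that match several segments is not given in the sources used here. Over windows of 50 bases, a median of 77.2% of a member's transcript matched no other annotated gene, 27 members were unique throughout, and 22 were unique over less than 50%. Ighv1-62-2 and Ighv1-71 were identical over their last 280 bases and unique over 8.21% and 2.58%, so their separate values are uncertain. Igkv14-126, Ighv7-1, Igkv15-103 and Igkv5-39 were unique throughout. Ighv11-2 was unique over 61.4%, and Igkv1-110 and Igkv1-117 over 49.1% and 50.1%.

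V segments were abundant in every HSPC library and nearly absent from MLL-AF9 cells. Levels are CPM, the share of a library's counts on the usual per-million scale, with library sizes adjusted by TMM factors. Summed over the 85 heavy chain members, the level was 628, 769, 1821 and 674 CPM in WT replicates 1 to 4 and 1634, 1072, 1199 and 2077 CPM in Mir139KO replicates 1 to 4. In the 6 MLL-AF9 libraries the heavy chain sum was 0.226 ± 0.12 CPM (SD, n = 6). The kappa sum was 907, 1096, 2618 and 1085 CPM in WT and 2374, 1580, 1775 and 2983 CPM in Mir139KO. In MLL-AF9 the kappa members held 2 counts in all 6 libraries together. The lambda sum was 10.6, 21.6, 30.7 and 24.2 CPM in WT and 78.8, 25.6, 19.6 and 27.3 CPM in Mir139KO, and it was 0 in all MLL-AF9 libraries. WT and Mir139KO overlapped at all 3 loci, with WT replicate 3 the highest WT library each time. In such bulk samples, fewer cells of a type and less RNA per cell cannot be told apart.

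**Figure D1:**
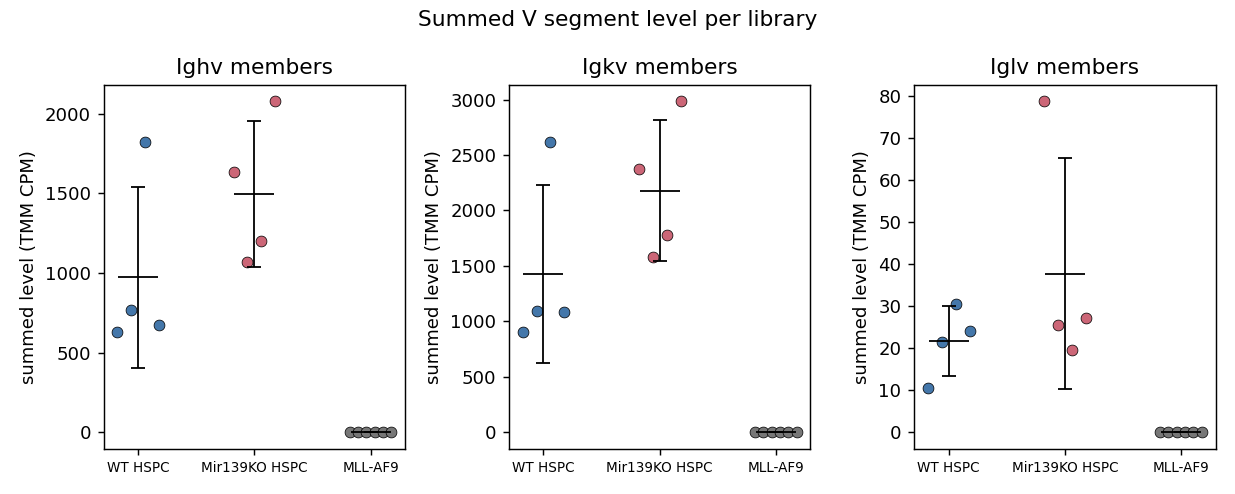
Summed level of the Ighv, Igkv and Iglv members per library in TMM CPM (vertical axes) for the 4 WT HSPC, 4 Mir139KO HSPC and 6 MLL-AF9 libraries. Points are libraries, bars are mean ± SD, and WT replicate 3 lies among the Mir139KO libraries in the heavy and kappa panels.

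Heavy chain and kappa counts kept a narrow ratio although their totals did not, while the lambda part varied more. Kappa members held 1.43 to 1.61 counts per heavy chain count over the 8 HSPC libraries. Kappa segments made up 98.4% ± 0.529 of light chain V counts in WT (SD, n = 4) and 98.3% ± 1.05 in Mir139KO (SD, n = 4), with the lowest value, 96.8%, in Mir139KO replicate 1 and the highest, 99.1%, in Mir139KO replicate 4. The remainder was lambda. This share rests on Iglv2 and Iglv3 alone, since Iglv1 is listed at 0 in all libraries. Heavy chain V counts were 0.179 to 0.225 per count of the heavy chain constant genes, and lambda V counts were 0.566 to 0.708 per count of Iglc2.

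The 6 most abundant heavy chain members are described by replicates 1 to 4 of each group. Ighv9-3 had the highest level per kilobase, 322 CPM per kb on average over the 8 HSPC libraries. It stood at 26.6, 26.7, 140 and 28.5 CPM in WT and at 137, 50.1, 276 and 221 CPM in Mir139KO. WT replicate 3 was thus at the level of Mir139KO replicate 1, and the groups overlapped. Ighv11-2 followed with 232 CPM per kb, at 39.0, 100, 155 and 42.0 CPM in WT and 84.1, 71.3, 102 and 262 CPM in Mir139KO. Mir139KO replicate 4 was the highest of the 8. Ighv3-6, at 119 CPM per kb, was the steadiest of the 6, from 30.4 to 66.2 CPM in WT and from 36.0 to 43.7 CPM in Mir139KO. Ighv7-1, a segment known from natural antibodies to phosphorylcholine, measured 11.6, 11.7, 23.7 and 48.9 CPM in WT and 30.8, 55.7, 53.5 and 64.6 CPM in Mir139KO. Only WT replicate 4 reached into the Mir139KO range. Ighv1-26 lay between 15.6 and 54.1 CPM and Ighv6-3 between 11.9 and 67.8 CPM over the 8 libraries. Per kilobase, Ighv7-1, Ighv1-26 and Ighv6-3 were at 103, 103 and 95.9 CPM, differences smaller than their own spread between libraries.

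Among kappa members Igkv14-126 was the most abundant, with 554 CPM per kb on average. Its levels were 72.1, 186, 271 and 88.8 CPM in WT and 169, 120, 203 and 476 CPM in Mir139KO, and Mir139KO replicate 4 stood apart as it did for Ighv11-2. Igkv10-96 (260 CPM per kb) was steadier, between 37.1 and 122 CPM in the 8 libraries. Igkv15-103 (235 CPM per kb) was at 21.7, 20.9, 80.7 and 128 CPM in WT and 121, 88.0, 108 and 135 CPM in Mir139KO. WT replicates 1 and 2 were low, and WT replicate 4 lay among the Mir139KO libraries. Igkv1-110 ranged from 22.8 to 167 CPM, Igkv5-39 from 21.4 to 168 CPM and Igkv1-117 from 11.7 to 141 CPM. WT replicate 3, Mir139KO replicate 4 and Mir139KO replicate 1 were highest for these segments in turn.

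The lambda segment Iglv2 was at 9.10, 20.1, 26.4 and 18.2 CPM in WT and 52.0, 23.8, 16.0 and 24.6 CPM in Mir139KO. Iglv3 was at 1.45, 1.45, 4.31 and 5.95 CPM in WT and 26.8, 1.77, 3.55 and 2.70 CPM in Mir139KO. Both were highest in Mir139KO replicate 1.

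**Figure D2:**
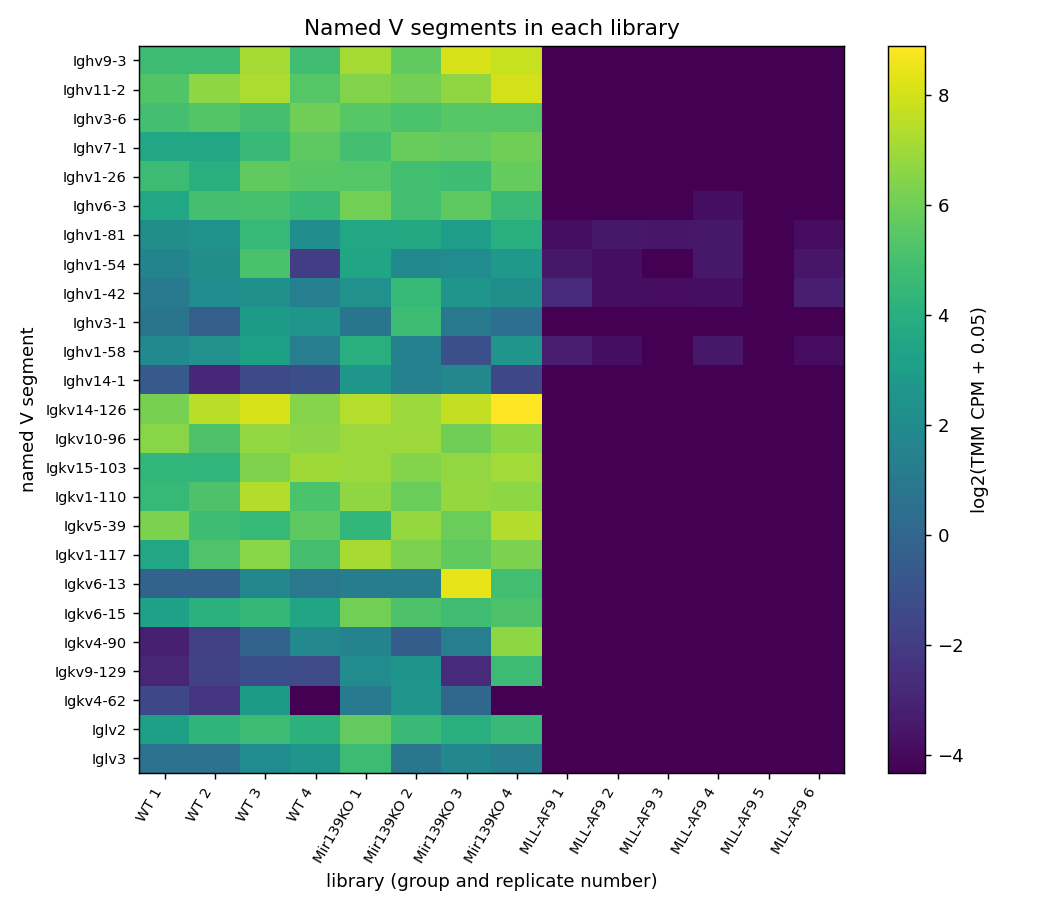
Level of the 25 named V segments (rows) in the 14 libraries (columns, group and replicate number), as log2(TMM CPM + 0.05) in color. The HSPC columns differ from library to library, and all MLL-AF9 columns lie at or near the bottom of the scale.

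Some segments were high in a single library or a few and scarce in the rest. The 4 members with the widest spread over HSPC libraries, among those with at least 50 counts on average, were all kappa segments, and were chosen for that spread. Igkv4-90 reached 99.3 CPM in Mir139KO replicate 4 and 0.0621 to 3.64 CPM in the other libraries. Igkv6-13 reached 335 CPM in Mir139KO replicate 3 and 29.5 CPM in replicate 4, against 0.830 to 3.57 CPM in the remaining 6. In that replicate 3 it made up 19.2% of the kappa level per kilobase. Igkv9-129 reached 26.4 CPM in Mir139KO replicate 4 and 5.67 CPM in Mir139KO replicate 2. Igkv4-62 reached 7.41 CPM in WT replicate 3 and 5.98 CPM in Mir139KO replicate 2, with 0 counts in WT replicate 4 and Mir139KO replicate 4. The leading segment of each locus changed accordingly. By level per kilobase, Ighv9-3 led the heavy chain locus in 4 libraries, Ighv11-2 in 2, Ighv3-6 in WT replicate 4 and Ighv2-3 in WT replicate 1. Igkv14-126 led the kappa locus in 4 libraries, and Igkv15-103, Igkv10-96, Igkv6-13 and Igkv19-93 in 1 each. A median member had a standard deviation of 1.13 log2 units over the 8 libraries, against 0.426 for a median tested gene, on the log2(CPM + 0.5) scale. Within the 4 libraries of low Gm26917 share these were 0.894 and 0.206, and within those of high share 1.20 and 0.200. This spread depends on level. The 3694 other tested genes with a mean HSPC level between the members' quartiles had a median of 0.508 over the 8 libraries.

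Despite these swings, the levels were spread over many segments in every library. Of the 85 heavy chain members, 82 to 85 had a count in each WT library and all 85 in each Mir139KO library. The rule for members kept only segments counted in several HSPC libraries, so this detection was nearly fixed beforehand and is a description. The effective number of heavy chain segments (the exponential of the Shannon entropy of shares per kilobase, which is the number of equally used segments that would give the same entropy) was 42.9 ± 3.63 in WT and 44.0 ± 8.83 in Mir139KO (SD, n = 4 each). For kappa it was 35.1 ± 3.21 in WT and 39.7 ± 7.08 in Mir139KO (SD, n = 4 each). The lowest values, 33.1 and 30.0, were both in Mir139KO replicate 3, where Ighv9-3 and Igkv6-13 led. The groups overlapped in both measures.

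The Ighv1 family, the largest in the mouse, held 44 of the 85 heavy chain members and 42.3% of the heavy chain level per kilobase, from 36.1 to 51.7% over the 8 libraries. Its share was 42.8% ± 6.01 in WT and 41.8% ± 4.71 in Mir139KO (SD, n = 4 each), a difference smaller than the spread. Ighv9 held 10.3% with 4 members, and Ighv11 6.77% with 1. Of the kappa families, Igkv14 held 13.1% with 4 members, and Igkv4 7.06 to 16.7% over the libraries with 20. Igkv6 varied from 4.83 to 26.5%, with its peak in Mir139KO replicate 3.

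Along the heavy chain locus on chromosome 12, the 185 listed segments were split by rank of distance to the first J segment into near, middle and far parts of nearly equal number. The near part (143 to 884 kb away) held 46.5% of the level per kilobase with 31 members, the middle part 23.0% with 23 and the far part (1507 to 2580 kb) 30.5% with 31. In the kappa locus on chromosome 6 the near part (18.4 to 1041 kb) held 37.0% with 35 members, the middle part 15.6% with 23 and the far part (1986 to 3166 kb) 47.4% with 26. The far part of the kappa locus includes Igkv14-126, Igkv10-96, Igkv15-103, Igkv1-110 and Igkv1-117, so 5 of the 6 most abundant kappa members lie there.

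**Figure D3:**
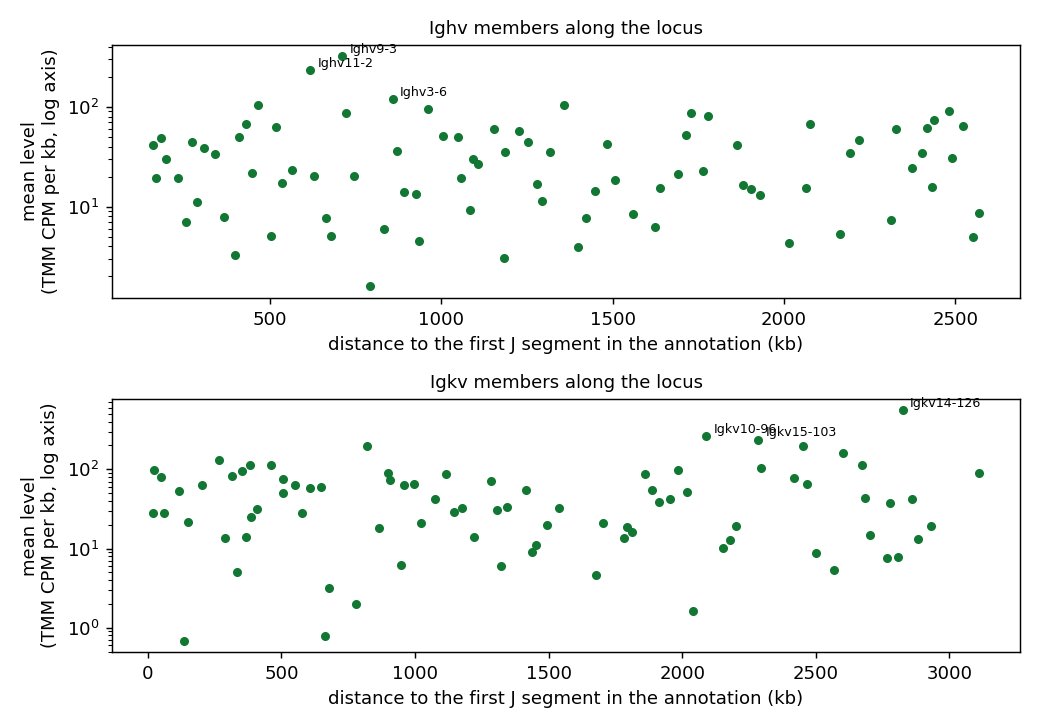
Mean level per kilobase over the 8 HSPC libraries (vertical log axis, TMM CPM per kb) of each Ighv and Igkv member against its distance to the first annotated J segment in kb. The 3 members with the highest level per kilobase in each locus are named, and abundant and scarce segments alternate along both loci.

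Heavy and light members were then compared for levels that follow each other. Over the 8 HSPC libraries, all 7310 pairs of 85 heavy with 86 light members were correlated on the log2 CPM scale, with a median Pearson r of 0.324. The pair with the highest r, and so chosen after its values were seen, was Ighv11-2 with Igkv14-126 (r = 0.993, exact two-sided permutation p = 2.48e-05, adjusted p = 0.181 over all pairs; Spearman rho = 1, exact permutation p = 4.96e-05, adjusted p = 0.363). No pair passed the adjustment, and the first p is the smallest that 40320 orders of 8 libraries allow. A single pair at that smallest p cannot get an adjusted p under 0.181 here, so the adjustment could not have passed it alone. The next light member for Ighv11-2 was Igkv6-23 with r = 0.907, and the next heavy member for Igkv14-126 was Ighv1-7 with r = 0.936. Without the 2 libraries farthest from the median of Ighv11-2, r was 0.982. No correlation is given within a group or Gm26917 class, since each holds only 4 of these libraries.

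The ratio of the 2 levels does not depend on scaling. Ighv11-2 over Igkv14-126 was 0.541, 0.538, 0.571 and 0.473 in WT and 0.497, 0.594, 0.506 and 0.551 in Mir139KO, while each member varied more than 6-fold (6.72 and 6.60 from the lowest to the highest library). The standard deviation of the log2 ratio, 0.109, was the smallest of the 7310 pairs, of which the next had 0.315 and the median 1.6. The pair had been chosen for its high r over these same libraries. Its steady ratio restates that r and is no separate result. Ighv12-3 with Igkv4-91, the other pair known to bind phosphatidylcholine, had r = 0.260 (exact permutation p = 0.536, adjusted p = 0.82) and 0.715 without 2 libraries, and Ighv12-3 was low, at 0.342 to 5.68 CPM. Ighv7-1 with Igkv7-33, a pair known from antibodies to phosphorylcholine, had r = 0.503 (exact permutation p = 0.196, adjusted p = 0.638) and 0.737 without 2 libraries, and Igkv7-33 did not exceed 0.556 CPM. A rise in a single library was shared by Ighv2-3 and Igkv19-93, at 85.5 and 135 CPM in WT replicate 1. In the other 7 libraries these were at 3.40 to 19.1 and 10.1 to 35.9 CPM. Their r of 0.755 (exact permutation p = 0.0511, adjusted p = 0.496) fell to 0.167 without 2 libraries and so rests on them.

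**Figure D4:**
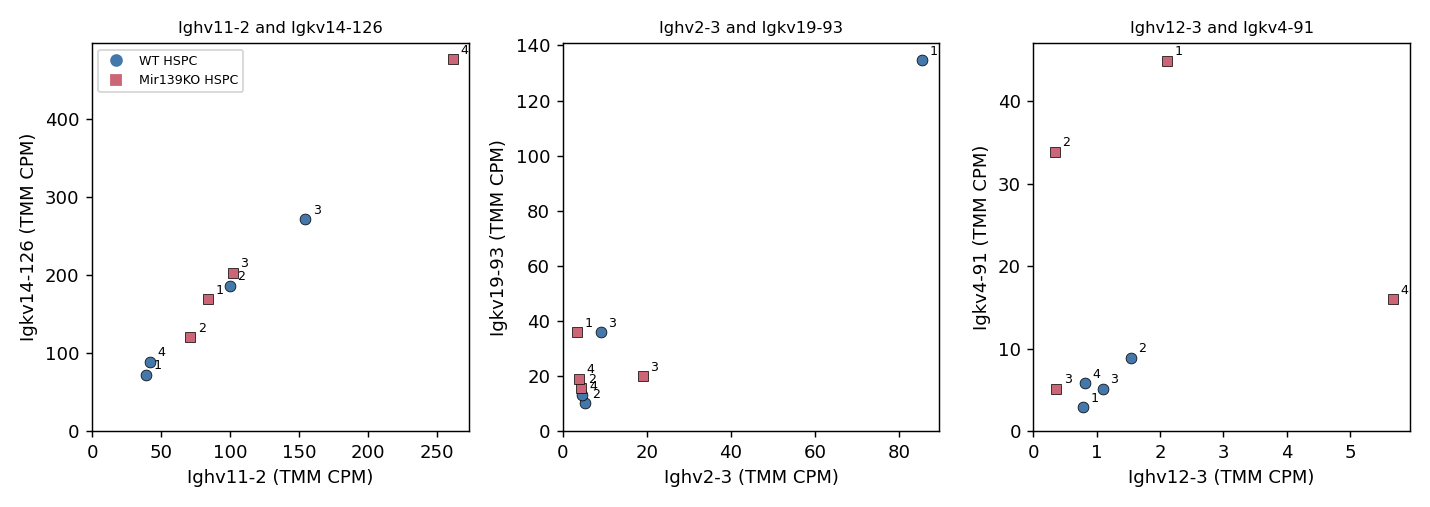
Level of a light chain segment (vertical axes, TMM CPM) against that of a heavy chain segment (horizontal axes, TMM CPM) in the 8 HSPC libraries, with replicate numbers beside the points. Ighv11-2 and Igkv14-126 rise together over the 8 libraries, Ighv2-3 and Igkv19-93 share only the high WT replicate 1, and Ighv12-3 and Igkv4-91 scatter.

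The comparison of MLL-AF9 with WT HSPCs asked how transformed cells differ from their source. The rule for members kept only segments with counts in HSPCs, so the direction followed from the rule and is a description. All 143 members tested were called lower by edgeR's quasi-likelihood test (adjusted p under 0.05), beside 29.4% of all genes tested, and all 143 showed no overlap between groups, beside 24.4%. Against Mir139KO HSPCs, 156 of 156 members tested were lower, beside 31.9% of all genes, again without overlap, beside 28.2%.

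In MLL-AF9 cells, 147 members had 0 counts in all 6 libraries, including 82 of 84 kappa members and both lambda members. The limit of 3 counts in a library corresponds to at most 0.0606 CPM, and it covers counting error only. Against this limit the mean WT level was at least 2549-fold higher for Igkv14-126, at least 1385-fold for Ighv11-2, at least 912-fold for Ighv9-3 and at least 304-fold for Iglv2. The other 24 members had at most 5 counts in any MLL-AF9 library. The 4 highest were all Ighv1 segments: Ighv1-42 with 11 counts over the 6 libraries, Ighv1-81 with 8, and Ighv1-54 and Ighv1-58 with 7 each. Across HSPC libraries Ighv1-42 was at 2.05 to 22.8 CPM and Ighv1-81 at 4.42 to 22.8 CPM.

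Most of the V counts of MLL-AF9 cells fell outside the members. Of 276 V counts in the 6 libraries, 274 were heavy chain and 72 fell on members. The Ighv1 family held 160 and the Ighv8 family 110. Ighv1-41, a pseudogene, had 9, 18, 9, 1, 12 and 1 counts in MLL-AF9 replicates 1 to 6 and 0 to 8 in the HSPC libraries. Ighv8-6 had 5, 6, 3, 9, 0 and 15 counts there and 1 to 4 in the HSPC libraries. Both of these segments were rare in HSPCs and were named after their values were seen.

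The comparison of Mir139KO with WT HSPCs asked whether loss of Mir139 changes the progenitors. No member passed edgeR's quasi-likelihood test among 171 tested, and 0% of all 15056 genes did (DESeq2 called 0 members as well). Unadjusted p-values under 0.05 were found for 38 members, beside 0.571% of all genes tested (86 genes). Of the 38, 37 were higher in Mir139KO and 1, Ighv8-5, was lower. The groups did not overlap for 9 members, all higher in Mir139KO, beside 0.478% of all genes. The median fitted log2 fold change was 0.66 over the members and -0.03 over all genes, and 136 members lay above 0. Members varied together and more than other genes did, so these counts are not counts of independent genes. Without WT replicate 3 the number of members with an unadjusted p under 0.05 rose from 38 to 63, beside 182 of 15379 genes. Without WT replicate 1 it fell to 30, beside 188 of 15185 genes. Within the 4 low-share libraries the members' share was near that of all genes, with 41 of 171 members beside 3279 of 15640 genes. Within the high-share libraries it was 29 of 170 members beside 558 of 14699 genes.

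The 3 members with the lowest p are given as fitted log2 fold changes with standard errors. Igkv9-129 had 5.04 ± 1.30 (edgeR, adjusted p = 0.9999), from 0.0827, 0.254, 0.401 and 0.372 CPM in WT and 4.05, 5.67, 0.0973 and 26.4 CPM in Mir139KO. Mir139KO replicate 3 lay within the WT range. Ighv14-1 had 3.14 ± 0.81 (edgeR, adjusted p = 0.9999), with Mir139KO replicate 4 within the WT range. Igkv6-15 had 1.46 ± 0.38 (edgeR, adjusted p = 0.9999), at 9.33, 17.1, 22.3 and 11.4 CPM in WT and 66.9, 36.3, 28.3 and 36.4 CPM in Mir139KO, with no overlap. None passed the adjustment. In DESeq2's Wald test the adjusted p was 0.052 for Ighv14-1, 0.146 for Igkv9-129 and 0.289 for Igkv6-15, so none was called there either.

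Ighv7-1 and Ighv3-1 were each called within 1 class of Gm26917 share and not in the other. Both had been named in an earlier analysis of these same data, so these calls are no independent result. The low-share fit holds only WT 1 and 2 with Mir139KO 2 and 3, and the high-share fit WT 3 and 4 with Mir139KO 1 and 4. Ighv7-1 had a log2 fold change of 1.09 ± 0.48 (edgeR, adjusted p = 0.9999), with 2.23 within the 4 low-share libraries (edgeR, adjusted p = 0.0409) and 0.36 within the 4 high-share libraries (edgeR, adjusted p = 0.9999). The difference between the classes was not tested. Ighv3-1 had 1.05 ± 1.08 (edgeR, adjusted p = 0.9999), and it stood at 27.7 CPM in Mir139KO replicate 2 against 0.761 to 7.31 CPM in the other 7. Without that library the log2 fold change turned to -1.24. It was -2.15 within the high-share libraries (edgeR, adjusted p = 0.0377) and 3.60 within the low-share libraries (edgeR, adjusted p = 0.295).

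**Figure D5:**
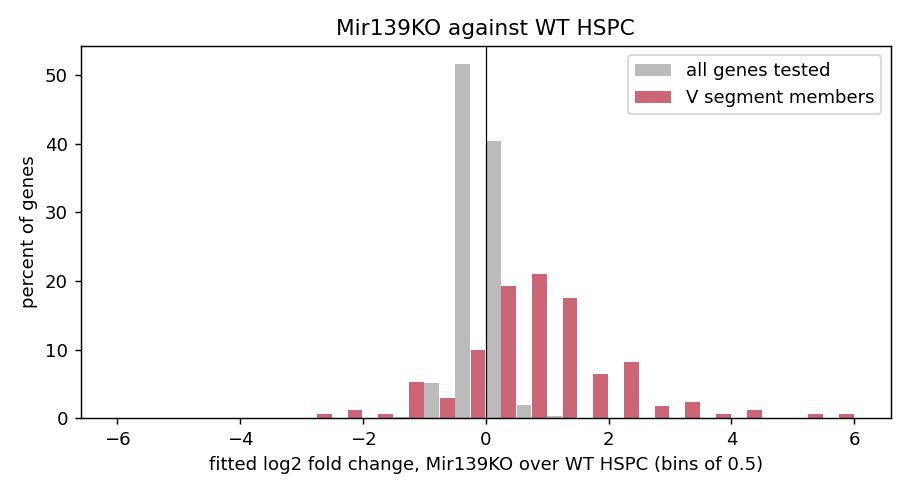
Share of genes in percent (vertical axis) by fitted log2 fold change of Mir139KO over WT HSPC, in bins of 0.5, for the 171 members and all 15056 genes tested. The members spread from -2.60 to 5.68 with a median of 0.66, while the median of all genes lies at -0.03.

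On the mean log2 scale the members' median difference was 0.86, and 0.85 and 0.87 within the low-share and high-share libraries. In summed level, both low-share Mir139KO libraries (1072 and 1199 CPM of heavy chain) lay above both low-share WT libraries (628 and 769 CPM). The high-share libraries overlapped, with 1634 and 2077 against 1821 and 674 CPM.

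The other genes of antibody production were read from lists of constant chains, recombination factors and receptor partners. Of the 13 constant and joining chain genes, 9 were tested between MLL-AF9 and WT. All 9 were lower (edgeR, adjusted p under 0.05), beside 29.4% of all genes tested. Ighm, the IgM heavy chain, was at 1556 to 6015 CPM in HSPCs and 3.98 to 26.4 CPM in MLL-AF9. Igha, the IgA heavy chain, was at 709 to 4993 CPM in HSPCs with 0 counts in MLL-AF9, and Jchain, which joins IgM and IgA units, at 67.7 to 320 CPM against at most 0.076. Igkc, the constant region that all kappa chains share, and Iglc1 and Iglc3 are listed at 0 in all 14 libraries, although kappa V segments were abundant, so kappa constant levels could not be set beside them. Igha made up 20.2 to 58.9% and Ighm 25.4 to 70.9% of heavy chain constant counts over the HSPC libraries.

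Of the 10 recombination genes, 8 were tested, 4 were higher and 2 lower in MLL-AF9, beside 29.4% of all genes called lower. The share of all genes called higher is not given here, so these counts are a description. Dclre1c, which opens the DNA hairpins, and Xrcc4, a ligation partner, were higher by log2 2.34 and 4.38. Dntt, which adds junctional bases in lymphoid precursors, was at 14.8 to 25.4 CPM in HSPCs and at most 0.0584 in MLL-AF9. The recombinase genes Rag1 and Rag2 are listed at 0 in all libraries. All 5 tested of the 6 receptor partner genes were lower, beside the same 29.4% of all genes. Among them were Cd79a and Cd79b, the signaling chains of the B cell receptor. Between Mir139KO and WT none of these lists held a called gene, beside 0% of all genes tested. Ighg1, an IgG heavy chain, had the lowest p (log2 fold change 1.33, edgeR, unadjusted p = 0.0127).

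Markers of other cell types were measured beside these results, and their part in the results was not tested. For B cells, 9 of 10 markers were tested between MLL-AF9 and WT, 6 were lower and 2 (Cr2 and Bank1) higher. Of all genes tested, 29.4% were called lower, and this share stands beside the counts of every cell type here. The share called higher is not given. Their summed level was 26.3 to 45.1 CPM in WT, 18.5 to 38.0 in Mir139KO and 6.86 to 40.8 in MLL-AF9, and Ms4a1 is listed at 0 throughout. For plasma cells, 8 of 10 markers were lower and Xbp1 was higher, with sums of 424 to 767, 498 to 799 and 329 to 604 CPM. Sdc1 and Mzb1, which mark plasma cells, were at 11.4 to 36.5 and 6.58 to 36.1 CPM in HSPCs. All 8 T cell markers and all 4 erythroid markers tested were lower in MLL-AF9, with sums of 46.6 to 115 and 336 to 927 CPM in HSPCs. Alas2 is listed at 0 in all libraries. Of 5 neutrophil markers 1 was lower, and their sum ran from 323 to 10496 CPM in HSPCs and 245 to 3794 CPM in MLL-AF9. The HSPC markers were detected in all HSPC libraries, Kit at 144 to 264 CPM and Cd34 at 31.6 to 50.3 CPM. Between Mir139KO and WT no marker was called, beside 0% of all genes tested. The 6 HSPC markers summed to 383 to 557 CPM in WT and 492 to 577 CPM in Mir139KO HSPCs. They were thus detected beside the plasma, B, T, erythroid and neutrophil markers whose sums are given above. Marker levels do not give the share of each cell type, and the progenitor label was not tested.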

How the data were processed

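Total RNA of 14 libraries was depleted of ribosomal RNA and sequenced (KAPA RNA HyperPrep with RiboErase, NovaSeq). The deposited values are raw counts per gene, made by the authors with STAR 2.5.3e on GRCm38 and featureCounts 1.6.0 with a GENCODE annotation. How strand and reads matching several genes were handled is not given in the sources used here. The deposit holds 2 count tables, identical in 735700 shared cells. A further 10 columns of another series were not used. Groups came from the labels. The members, lists and tests were chosen with earlier results of these data known. Segments were placed with GENCODE M21 (GRCm38), which matched all 171 members, and the printed bases are from its transcripts.

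Each comparison used its 2 groups in edgeR 4.0.16 (limma 3.58.1, R 4.3.3), with TMM factors, genes of at least 10 counts in at least 4 libraries, robust quasi-likelihood fits and Benjamini-Hochberg adjustment (called under 0.05). The script was tested on simulated counts. DESeq2 1.42.0 was an alternative. CPM used TMM factors over all 14 libraries. Shares and levels between segments were per kilobase of annotated exon. Named members were the 6 heavy chain and 6 kappa members with the highest mean CPM in HSPCs, and the lambda members. Added to these were the 4 with the widest log2 spread in HSPCs (mean of at least 50 counts) and the 4 highest in MLL-AF9. The 3 with the lowest p between Mir139KO and WT were also named. Ighv3-1 and Ighv7-1 were included because an earlier analysis of these data had named them. Other segments named were chosen after their values were seen. No p was computed for sums or diversity, which are scores over the members. Heavy and light pairs were correlated with exact permutation in SciPy 1.17.1. With 35016668 to 45877994 counts a library, 3 counts corresponded to 0.0545 to 0.129 CPM. Replicate numbers were taken as running numbers, not as pairs of WT and Mir139KO samples. For the same numbers 1 to 4, deviations of these samples correlated at -0.631, 0.719, -0.652 and 0.508. The sign was negative where the Gm26917 share classes differed and positive where they matched, so these values cannot show whether samples were paired.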

Additional observations from a re-analysis of the deposited data

Results flagged for a closer look

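In 15 of 62 groups of 4 HSPC libraries checked, 1 library stood far from the other 3 (gap to the nearest over the range above 0.829). Chance would flag about 1 group in 20, but the 15 flags cannot be set against that rate. Some of the flagged segments had been named for their wide spread over these same libraries. Groups that share libraries are also not independent, and whether the rate holds for CPM values was not tested. WT replicate 3 was the distant library for summed Ighv (1821 CPM), summed Igkv (2618 CPM), Ighv9-3 (140 CPM), Igkv1-110 (167 CPM), Igkv4-62 (7.41 CPM), Ighv1-81 (22.8 CPM) and Ighv1-54 (34.4 CPM), each time as the highest WT library.

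Among Mir139KO libraries, replicate 1 was distant and highest for summed Iglv (78.8 CPM) and Iglv3 (26.8 CPM). Replicate 4 was so for Ighv11-2 (262 CPM) and Igkv4-90 (99.3 CPM), and replicate 3 for Igkv6-13 (335 CPM). Replicate 2 was highest for Ighv1-42 (22.8 CPM) and Ighv3-1 (27.7 CPM) and lowest for Ighv3-6 (36.0 CPM).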

How the results depend on the processing

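Between MLL-AF9 and WT HSPCs all tested members stayed lower under every alternative run with edgeR, and only the number tested moved. The rule for members had fixed this direction beforehand, so it is a description under each setting. With a mean of at least 100 counts, 86 of 86 members were called lower, beside 3721 of 11738 genes. With each replicate left out it was 143 to 152 members, beside 4475 to 5057 genes. Against Mir139KO HSPCs the count was 156 to 161 with each replicate left out, beside 5153 to 5359 genes. It was 169 of 171 without a filter on low counts, beside 5971 of 28276 genes. With only neo cultures it was 165 of 168, beside 5276 of 16655 genes. DESeq2 called 131 of 143 members beside 5289 of 17077 genes, and 149 of 156 beside 5628 of 16953. With the replicate block the counts were 143, 156 and, between Mir139KO and WT, 0. The block changed no call, and the labels do not say that the numbers pair these samples.

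Between Mir139KO and WT, leaving out any replicate gave 0 called members, while 1 member was called within the low-share libraries (Ighv7-1, log2 fold change 2.23, edgeR, adjusted p = 0.0409) and 1 within the high-share libraries (Ighv3-1, -2.15, edgeR, adjusted p = 0.0377), each the single call among 15640 and 14699 genes. Ighv3-1 also reversed with the replicate block (-0.26), and it ran from -1.24 to 1.53 with a replicate left out. The number of members with an unadjusted p under 0.05 was 26 to 50 under the other settings run, and 30 to 63 with a replicate left out, the most without WT replicate 3. Over all genes this number was 38 to 558 under those settings, apart from 3279 of 15640 within the low-share libraries (41 of 171 members), and 74 to 188 with a replicate left out. The median difference of the members on the mean log2 scale, an alternative chosen after the data were seen, was 0.76 to 0.86 under other scalings and 0.62 to 1.29 with a library left out. Scaling by total counts moved the all-gene median log2 fold change from 0.14 to 0.69 between MLL-AF9 and WT and from 0.16 to 0.84 between MLL-AF9 and Mir139KO. Sums per locus, the kappa share and the effective numbers moved by less than 1 SD under each alternative run.

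Segments with near-identical copies, counts under 3 in MLL-AF9 libraries, and groups of 4 limit these values.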
